A study of Sedum plumbizincicola and Sedum alfredii with 13 samples.

Results

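The transcripts described here had higher normalised counts in Sedum alfredii than in Sedum plumbizincicola in both organs. They are 150 assembled transcript clusters of 10144 that had at least 10 counts in all 12 files, out of 66584 clusters listed. They were chosen by the measured species difference itself. Expected counts were divided by a size factor for each library, the mean of the S. alfredii libraries was divided by the mean of the S. plumbizincicola libraries in roots and in shoots, and the 150 clusters with the highest value of the smaller log2 ratio were taken. That smaller ratio is called the score below. The species difference is therefore a description of the choice and carries no test. Reads of both species were counted on 1 transcript set whose species of origin no source used here gives, so a difference in expression and a difference in how well the reads of each species align cannot be told apart in any species ratio below.

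The libraries were RNA-seq of roots and shoots harvested after 3 days with 10 or 0 µM CdCl2. For S. alfredii, which the series title marks as the non-hyperaccumulating ecotype (NHE), there was 1 library each for 10 µM roots, 0 µM roots, 10 µM shoots and 0 µM shoots. For S. plumbizincicola, the hyperaccumulator, there were 2 libraries, A and B, in each of these 4 organ and dose groups. No transgene, mutant or other agent is named in the labels, and whether a library came from 1 plant or several is not stated, so the p-values below measure only the spread between these libraries, which may be technical. Depth was 3434922 to 4670429 reads in the 4 S. alfredii libraries and 1260160 to 2403858 reads in the 8 S. plumbizincicola libraries.

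Hyperaccumulators are plants that take up cadmium or zinc from the soil, load it into the xylem and store it in their leaves at concentrations that poison most plants. In such plants genes of metal transport and chelation are often more strongly expressed than in a non-accumulating relative, whether or not metal is supplied. The transcripts on the other side of that comparison, those that stand higher in the non-accumulator, are the ones described here. Other populations of S. alfredii are themselves hyperaccumulators, and NHE marks the one studied here as not being so. The clusters carry assembly IDs without gene names, so no function is given for any of them and few IDs are named.

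Per length, the members stood near the median transcript in S. plumbizincicola and well above it in S. alfredii. On the TPM scale, which allows for transcript length and library size, their median level was 132 in S. alfredii and 27.6 in S. plumbizincicola, while the medians of all 10144 clusters over the floor of 10 counts were 21.6 and 25.2 TPM. In S. alfredii 89 members were in the top 10% of these clusters and all 150 were above the median. In S. plumbizincicola 11 were in the top 10% and 81 were above the median. Mean levels of single members ran between 22.7 and 9061 TPM in S. alfredii and between 2.96 and 1763 TPM in S. plumbizincicola. By normalised counts, which do not allow for length, the library medians of the members were 278 to 376 in S. alfredii and 37.0 to 45.7 in S. plumbizincicola, against 75.5 to 81.7 for all clusters over the floor in the 12 libraries, so on that scale the members were below the median transcript in S. plumbizincicola. These levels belong to the contrast that chose the members and are given as a description. Whole organs were sampled, so fewer cells of a type and less RNA per cell cannot be told apart.

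Together the members took a share of the reads in S. alfredii that was several times that in S. plumbizincicola. The shares were 4.30% (95% exact binomial interval 4.28% to 4.32%) of the 10 µM root library and 4.74% (4.71% to 4.76%) of the 0 µM root library of S. alfredii. The 4 root libraries of S. plumbizincicola gave 0.577% to 0.628%. In shoots the shares were 6.35% (6.32% to 6.37%) at 10 µM and 4.29% (4.27% to 4.31%) at 0 µM in S. alfredii, against 0.753% to 0.885% in the 4 S. plumbizincicola libraries. The intervals cover counting error only. The higher share of the 10 µM shoot library came in part from c45677_g1, without which it was 5.67%.

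**Figure D1:**
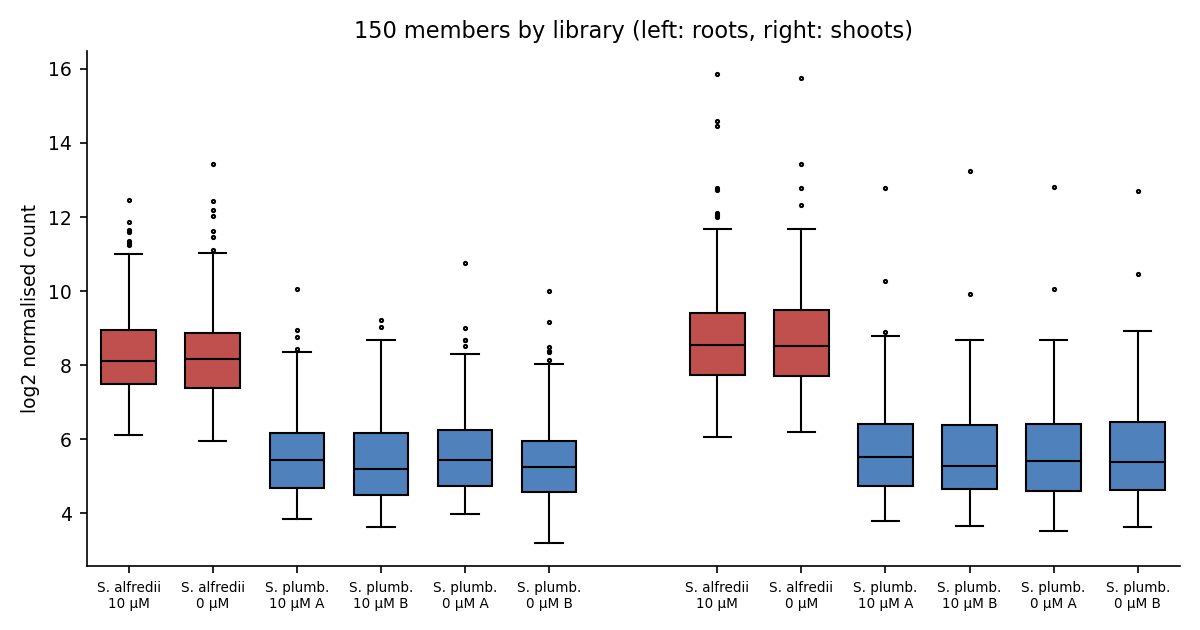
Box plots of the log2 normalised count (expected count over size factor) of the 150 members in each library, roots on the left and shoots on the right; boxes span the quartiles, the line is the median, whiskers reach 1.5 times the box and dots lie beyond them. The median normalised count was between 278 and 376 in the S. alfredii libraries (red) and between 37.0 and 45.7 in the S. plumbizincicola libraries (blue).

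The ratio of S. alfredii to S. plumbizincicola had a median of 5.91-fold in roots (log2 2.56, range 2.06 to 6.19) and 8.04-fold in shoots (log2 3.01, range 2.06 to 7.66) on the scale of normalised counts. On the TPM scale the order of the organs turned, with median log2 ratios of 2.59 in roots and 2.24 in shoots. There the median over all clusters above the floor was 0.03 in roots and -0.59 in shoots, and the members stood 2.56 and 2.83 above it. By normalised counts all 150 members were at least 4-fold higher in both organs, 30 were at least 8-fold higher, 4 at least 16-fold and 1 at least 32-fold. By TPM 88 were at least 4-fold and 139 at least 2-fold higher in both organs. In some members the mean TPM was lower in S. alfredii, for example at 92.8 against 161, so the direction depends on the scale there. The shoot ratio was the larger one for 103 members and the root ratio for 47 by normalised counts, against 50 and 100 by TPM. Over all clusters above the floor the shoot ratio also varied more (SD 1.28 on the log2 scale) than the root ratio (SD 1.06). In 114 members the ratios of the organs were within 2-fold of each other, and in 7 they were 4-fold or more apart. Within each organ every S. alfredii library was above every S. plumbizincicola library for all 150, and for 139 the lowest of all 4 S. alfredii libraries was above the highest of all 8 S. plumbizincicola libraries. The choice by a high ratio favours such separation. Over all clusters it was not counted, so nothing is read from it. In the fit of the contrast that chose the members, edgeR called 34.1% of all 24074 tested clusters higher in S. alfredii roots and 33.9% higher in its shoots. Nothing is read from these shares, since that contrast chose the members.

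**Figure D2:**
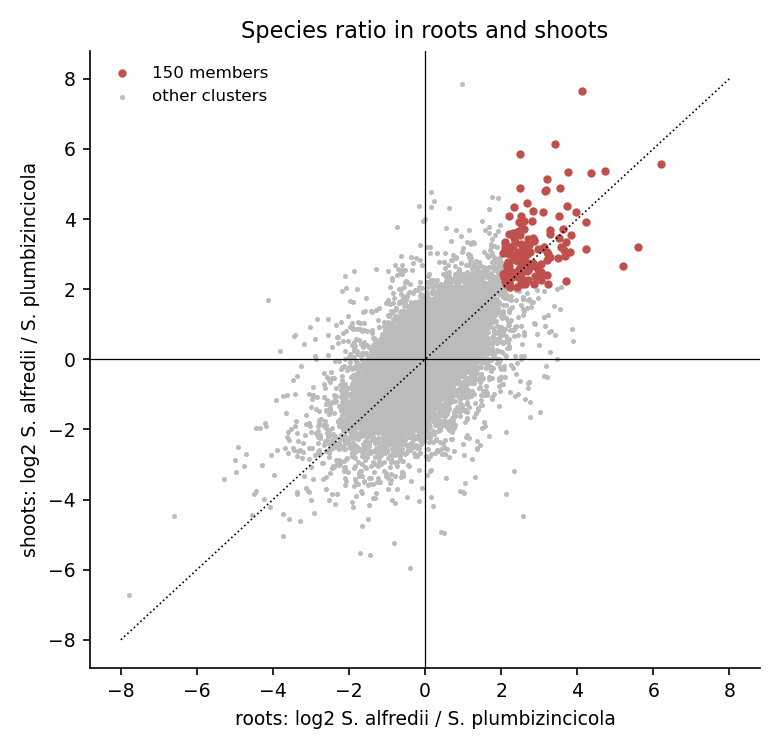
Log2 ratio of S. alfredii to S. plumbizincicola in roots (x axis) and shoots (y axis) for the 10144 clusters with at least 10 counts in every file; each dot is a cluster and the 150 members are red. The members fill the corner above 2.06 on both axes and 103 lie above the dotted line of equal ratios on this count scale, against 50 by TPM.

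The edge of the group is not a gap. The last pair of members had scores of 2.060 and 2.060 (both 4.17-fold), and the pair of clusters just outside had 2.056 and 2.055 (both 4.16-fold). In all 167 clusters over the floor were at least 4-fold higher in S. alfredii in both organs, and 138 were at least 4-fold higher in S. plumbizincicola in both. With the same rule turned round, the 150 clusters highest in S. plumbizincicola reached a median of 2.33 and a lowest value of 1.96, against a median of 2.49 and a lowest of 2.06 for the members.

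The floor of 10 counts shaped the list from below. The lowest S. plumbizincicola count of a member had a median of 18, against 36 for all clusters over the floor, and was under 20 in 82 of 150 members (54.7%), against 25.2% of all. A further 3067 clusters under the floor would have scored at least as high as the last member with 1 added to each mean, and 1548 of these had no count in any S. plumbizincicola library. The members are thus transcripts that both species expressed measurably.

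Of the members with the highest scores, c33094_g1 led. Its normalised counts in roots were 1562 at 10 µM and 4658 at 0 µM in S. alfredii. In S. plumbizincicola roots they were 47.4 and 45.1 at 10 µM and 31.4 and 46.3 at 0 µM. The root ratio of the means was 73.1-fold. In shoots S. alfredii had 674 at 10 µM and 1539 at 0 µM, and S. plumbizincicola 31.7, 22.8, 15.0 and 23.5, a ratio of 47.6-fold. The groups were far apart in both organs, and in S. alfredii the treated library was the lower one each time. The second, c32908_g1, had 772 at 10 µM and 2051 at 0 µM in S. alfredii roots, against 37.8 to 65.4 in S. plumbizincicola roots, a ratio of 26.8-fold. In shoots it had 294 at 10 µM and 2630 at 0 µM in S. alfredii, against 22.3 to 56.4 in S. plumbizincicola, a ratio of 41.5-fold. Both scores differed between the libraries of each dose, which for S. alfredii are single libraries, so dose and library cannot be told apart. That of c32908_g1 was 3.25 in the Cd-treated libraries alone and 5.57 in the untreated libraries alone, and it was 3.07 without the untreated S. alfredii shoot library and 3.88 without the untreated S. alfredii root library. That of c33094_g1 was 4.63 in the Cd-treated and 6.32 in the untreated libraries, and 4.87 without the untreated S. alfredii shoot library.

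For the members as a whole the dose made little difference to the species ratio. In roots the median log2 ratio was 2.61 between the Cd-treated libraries and 2.58 between the untreated ones, and in shoots it was 3.02 and 2.96. No member had a log2 ratio below 0 in any of these 4 comparisons, against 5127 to 5265 of all clusters over the floor. The rule averaged these same libraries, so that count follows largely from the choice and nothing is read from it. The medians describe chosen members too. A list chosen on the ratios of 1 dose can be read in libraries of the other, whose ratios did not choose it. The count floor and the size factors used all 12 libraries, and both doses share the transcript set. The reading is therefore not independent and is given as a description. The 150 clusters with the highest score in the Cd-treated libraries alone, 128 of them members, had a median of 2.49 there and 2.35 in the untreated libraries, where 145 were at least 2-fold and 113 at least 4-fold higher in S. alfredii in both organs and 1 had a score below 0 (-0.95). The list chosen on the untreated libraries alone, 122 of them members, had a median of 2.46 there and 2.37 in the Cd-treated libraries, where 147 were at least 2-fold and 108 at least 4-fold higher in both organs and the lowest score was 0.58. The median score of all clusters over the floor was -0.40 and -0.39 in the libraries used for reading.

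No member passed the test for cadmium in S. plumbizincicola. Of the 150, 0 passed the edgeR test in roots. The unadjusted p was under 0.05 for 4 of them, and their lowest adjusted p was 0.359. The background was low as well, at 0.105% of 19935 tested clusters higher and 1.98% lower, and only 7 higher and 4 lower of the 10144 clusters over the floor. DESeq2 and limma also called 0. Without a filter on low counts edgeR called 1 member, c34021_g1, which is outside the rule for named clusters and was picked after its value was seen; its log2 fold change there was -0.74 (SE 0.21, adjusted p = 0.0321). The median log2 fold change of the members in roots was -0.01 (quartiles -0.26 and 0.22). The lowest in roots was that of c39467_g1, at 23.0 and 20.3 normalised counts with Cd and 45.6 and 45.5 without, so the doses did not overlap (log2 -1.07, SE 0.38, adjusted p = 0.359). The highest was that of c37190_g3, at 24.0 ± 9.65 with Cd and 14.4 ± 1.84 without (SD, n = 2 each; log2 0.78, SE 0.40, adjusted p = 0.809).

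In S. plumbizincicola shoots 0 of 150 members were called, as were 0.0% of the 19935 clusters tested, and 2 members had an unadjusted p under 0.05. DESeq2 and limma also called 0 members. The median log2 fold change was -0.03 (range -0.77 to 0.87). The highest was that of c28966_g1, at 27.9 ± 5.45 normalised counts with Cd and 15.0 ± 4.99 without (SD, n = 2 each; log2 0.87, SE 0.40), and the lowest that of c36406_g2, at 102 ± 28.0 and 171 ± 89.2 (SD, n = 2 each; log2 -0.77, SE 0.33). Both had an adjusted p of 1 by edgeR. The difference of the Cd response between roots and shoots was called for 0 of 150 members and for 0.0% of all tested clusters, with 5 members at an unadjusted p under 0.05 by edgeR and 0 called by DESeq2. With 2 libraries per group and many members near the count floor in at least 1 library, these counts do not show that the members did not respond.

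In S. alfredii the same comparison rests on 1 library per organ and dose. Replication is lacking there, so no test was made and members past a 2-fold ratio are counted as a description. In shoots 14 members (9.33%) stood 2-fold or more above the untreated library with Cd, and 8 (5.33%) stood 2-fold or more below it. Among all clusters over the floor these shares were 3.17% and 3.40%. In roots 3 members (2.00%) stood 2-fold or more above and 4 (2.67%) 2-fold or more below, against 0.759% and 0.828%. The rule averaged the doses, so a cluster with 1 very high S. alfredii library could enter the list through it, and the members' shares are to be read with that in mind. The 7 members past 2-fold in roots were also past 2-fold in shoots and in the same direction, 3 higher and 4 lower. Of all clusters over the floor, 77 stood 2-fold or more above and 84 below in roots, and 48 were past 2-fold in both organs. Among these 48, 41 had the same direction in both organs. The other 128 members were within 2-fold between doses in both organs of S. alfredii. Over all clusters above the floor this count was not made. Of the 10 members with the highest scores, 5 were past 2-fold in at least 1 organ. A single high S. alfredii library raises the score, so nothing is read from these counts.

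The member with the highest ratio was c45677_g1, which ranked 4th by score. It had 22574 normalised counts (24397 reads) in the Cd-treated and 512 (631 reads) in the untreated S. alfredii shoot, a ratio of 44.1-fold (exact counting interval 40.7 to 47.8). In S. alfredii roots it had 3187 with Cd and 1123 without (2.84-fold, 2.70 to 2.99). In S. plumbizincicola it had 44.4 and 93.6 in treated and 57.6 and 33.4 in untreated shoots, and its roots averaged 123 ± 31.6 over both doses (SD, n = 4), with library A at 94.7 in treated and 95.9 in untreated roots and library B higher at both doses. The doses overlapped in both organs. Its isoform-weighted length was 502 bases in the treated and 1186 bases in the untreated S. alfredii shoot, which means that the reads were assigned to other isoforms. On the TPM scale, which divides by that length, the log2 ratio in S. alfredii shoots was 7.16 in place of 5.46.

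Another pair of members was also far higher in the treated than in the untreated S. alfredii shoot library. The member c38696_g1 had 4070 normalised counts with Cd and 270 without in S. alfredii shoots, and 3748 and 1614 in its roots (2.32-fold, 2.22 to 2.42). The member c37162_g1 had 3287 with Cd and 212 without in S. alfredii shoots (15.5-fold, 13.7 to 17.7), and 1803 and 1274 in its roots. In S. plumbizincicola shoots neither passed the test, with log2 fold changes of -0.31 (SE 0.36) and -0.06 (SE 0.36). The largest ratios in the other direction were those of c36215_g1, at 187 normalised counts with Cd and 1753 without in S. alfredii shoots (9.38-fold lower, 8.12 to 10.9), and c32908_g1, at 294 and 2630 (8.94-fold lower, 7.96 to 10.1). In roots c33094_g1 was 2.98-fold lower with Cd (2.86 to 3.11) and c32908_g1 2.66-fold lower (2.50 to 2.82). The counting intervals leave out any spread between plants. The 14 members at least 2-fold higher with Cd in S. alfredii shoots had log2 fold changes between -0.76 and 0.57 in S. plumbizincicola shoots (median -0.03), with 6 of 14 above 0. Whether the Cd ratios differ between the species was not tested.

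**Figure D3:**
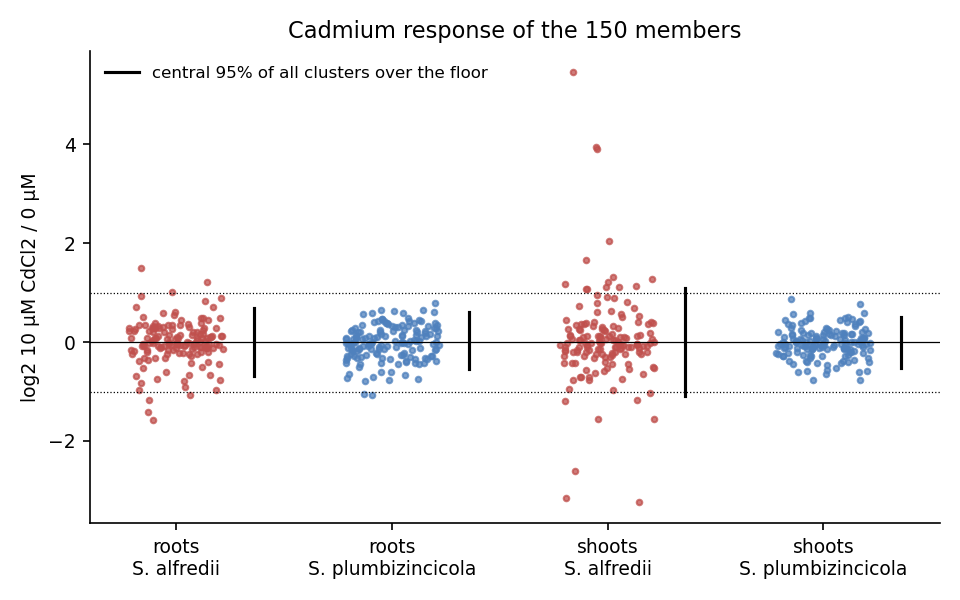
Log2 ratio of 10 µM to 0 µM CdCl2 for the 150 members (dots) in each organ and species; S. alfredii values are ratios of single libraries and S. plumbizincicola values are edgeR fold changes over 2 libraries per group. Black bars span the central 95% of all 10144 clusters over the floor and dotted lines mark 2-fold; the widest spread is that of S. alfredii shoots, where c45677_g1 stands at 5.46.

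Roots and shoots were then compared within each species, a contrast that the rule did not use directly. In S. plumbizincicola 43 of 150 members (28.7%) were called root-higher and 44 (29.3%) shoot-higher. The background was 33.6% and 29.9% of all 19935 tested clusters, and 32.9% and 26.6% of those over the floor, so the members were close to it. The largest root-to-shoot difference was that of c37162_g1, at 271 ± 19.6 normalised counts in roots and 30.1 ± 11.1 in shoots (SD over both doses, n = 4 each; log2 3.24, SE 0.21, adjusted p = 3.70e-09 by edgeR). It was followed by c38696_g1, at 252 ± 49.0 in roots and 31.0 ± 11.3 in shoots (SD, n = 4 each; log2 3.08, SE 0.21, adjusted p = 5.93e-09 by edgeR). These are the members whose S. alfredii shoot level was high with Cd. In S. alfredii neither was called between organs: c38696_g1 had 3748 and 1614 in roots and 4070 and 270 in shoots (adjusted p = 0.510 by edgeR), and c37162_g1 had 1803 and 1274 in roots and 3287 and 212 in shoots (adjusted p = 0.694 by edgeR), each given with Cd first.

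In the other direction c34607_g1 stood out in both species. It had the highest TPM of all members in each species and was far higher in shoots. In S. plumbizincicola it had 209 ± 32.4 normalised counts in roots and 7693 ± 1380 in shoots (SD, n = 4 each; log2 -5.12, SE 0.20, adjusted p = 1.01e-11 by edgeR). In S. alfredii it had 2522 and 2201 in roots with and without Cd, and 59331 and 55351 in shoots (log2 -4.61, SE 0.33, adjusted p = 1.41e-09 by edgeR). It alone held 1.79% of the reads of the treated and 1.46% of those of the untreated S. alfredii shoot library. The member c39197_g1 was also higher in shoots of both species, at 203 and 166 normalised counts in S. alfredii roots and 6989 and 7010 in its shoots (log2 -5.25, SE 0.27, adjusted p = 1.20e-11 by edgeR). In S. plumbizincicola it had 39.7 ± 2.09 in roots and 410 ± 23.9 in shoots (SD, n = 4 each; log2 -3.29, SE 0.15, adjusted p = 5.70e-11 by edgeR).

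In S. alfredii 19 members (12.7%) were called root-higher and 65 (43.3%) shoot-higher. The background was 25.5% and 22.7% of all 24074 tested clusters, and 24.8% and 26.6% of those over the floor. The median log2 root-to-shoot value of the members was -0.51, against -0.02 for all clusters over the floor. The direction of the count depended on the scaling: limma on log2(TPM + 1) called 45 members higher in roots and 13 higher in shoots, beside 5451 and 854 of the 10144 clusters over the floor. On that scale the median of all clusters over the floor moved to 0.86 and that of the members to 0.44. Relative to the median of those clusters the members leaned toward shoots by 0.49 on the count scale and by 0.42 on the TPM scale, with 105 and 104 of 150 members below it. In S. plumbizincicola the same difference was -0.12 and -0.10, and limma called 51 members root-higher and 31 shoot-higher, beside 3523 and 1820 of the 10144 clusters over the floor. The gap between the species in this lean equals the gap between the root and shoot ratios that chose the members, so it is not an independent result and was not tested.

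The S. alfredii calls come from the fit of all 12 libraries, in which the spread was mostly that of S. plumbizincicola. The Cd term of each organ in that fit was shared by the species. A Cd difference in S. alfredii alone therefore enters the residual spread. With the 4 S. alfredii libraries alone 63 members were called, 10 higher in roots and 53 in shoots, beside 2289 and 2273 of the clusters over the floor. In that fit the doses of an organ stood in as its replicates. Without the untreated S. alfredii root library 50 were called, 11 and 39, beside 1981 and 1643. The largest root-higher value was that of c44606_g2, at 1074 and 2007 normalised counts in S. alfredii roots with and without Cd and 96.2 and 150 in its shoots (log2 3.60, SE 0.25, adjusted p = 8.31e-10 by edgeR). The next, c36215_g1, had 2631 and 5513 in roots and 187 and 1753 in shoots (log2 2.42, SE 0.75, adjusted p = 0.0288 by edgeR). Its call was lost when either S. alfredii root library was left out (adjusted p = 0.202 without the untreated one and 0.0765 without the treated one by edgeR), without a filter on low counts (0.0929) and in the S. alfredii libraries alone (0.129).

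**Figure D4:**
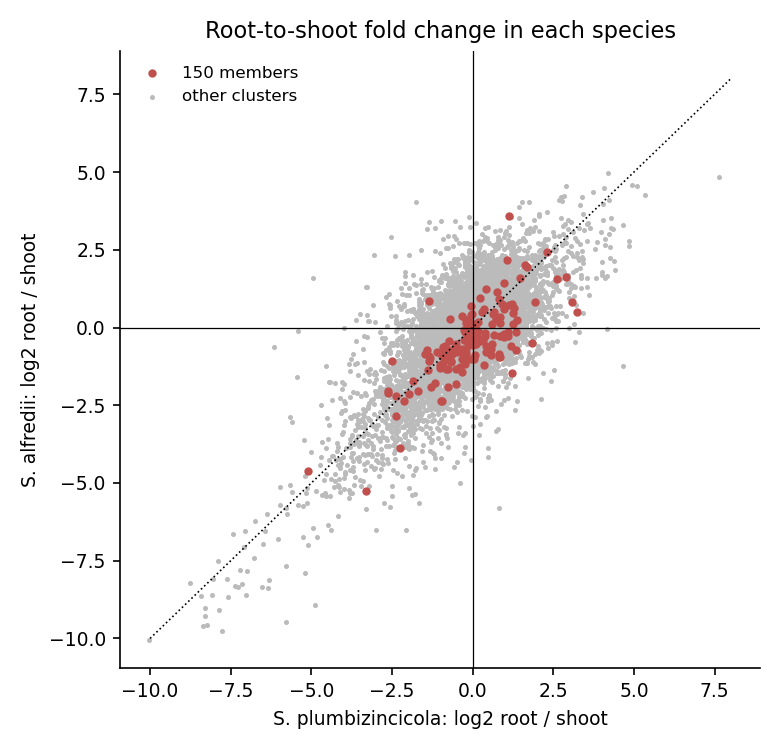
Root-to-shoot log2 fold change in S. plumbizincicola (x axis) and S. alfredii (y axis) from edgeR for the 10144 clusters over the floor; each dot is a cluster, members are red and the dotted line marks equal values. The members spread along the diagonal, with a median of -0.51 in S. alfredii and -0.01 in S. plumbizincicola. The members c34607_g1 and c39197_g1 lie at the shoot end of both axes.

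The root-to-shoot value had the same sign in both species for 103 of 150 members, against 6987 of the 10144 clusters over the floor. Of the 150, 16 were called higher in roots in both, 39 higher in shoots in both, and 6 were called in opposite directions, 5 of them higher in S. alfredii shoots and S. plumbizincicola roots. Among all clusters over the floor 14.8% were root-higher in both species and 16% shoot-higher in both, against 10.7% and 26.0% of the members. The opposite calls were 1.98% (root-higher in S. alfredii) and 2.19% (shoot-higher in S. alfredii) of those clusters, against 0.667% and 3.33% of the members. Across the 150 members the root-to-shoot values of the species had a Pearson correlation of 0.76 (Spearman 0.72), and across all clusters over the floor 0.70 (0.56). Each species' values share its own libraries, and the species share the transcript set and the scaling. The corresponding correlations of the Cd responses across members were 0.05 in roots and 0.08 in shoots, and across all clusters over the floor 0.13 and -0.00.

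The members were short beside the other clusters over the floor. Their isoform-weighted length had a median of 919 bases (quartiles 630 and 1370). The 150 clusters chosen by the mirrored rule, higher in S. plumbizincicola in both organs, had a median of 1448 bases (994 and 2184), and all clusters over the floor 1476 (1040 and 2044). A length under 1000 bases was found for 56.0% of the members, 26.7% of the mirrored list and 22.7% of all. The part of a transcript that RSEM counts as able to start a fragment, the effective length, was 0.849 of the length in S. alfredii and 0.816 in S. plumbizincicola at the median member. The median of the ratio taken cluster by cluster, S. alfredii over S. plumbizincicola, was 1.02 for the members and 1.01 for all clusters over the floor. Clusters under 1000 bases had a median score of -0.07 and longer ones -0.45.

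**Figure D5:**
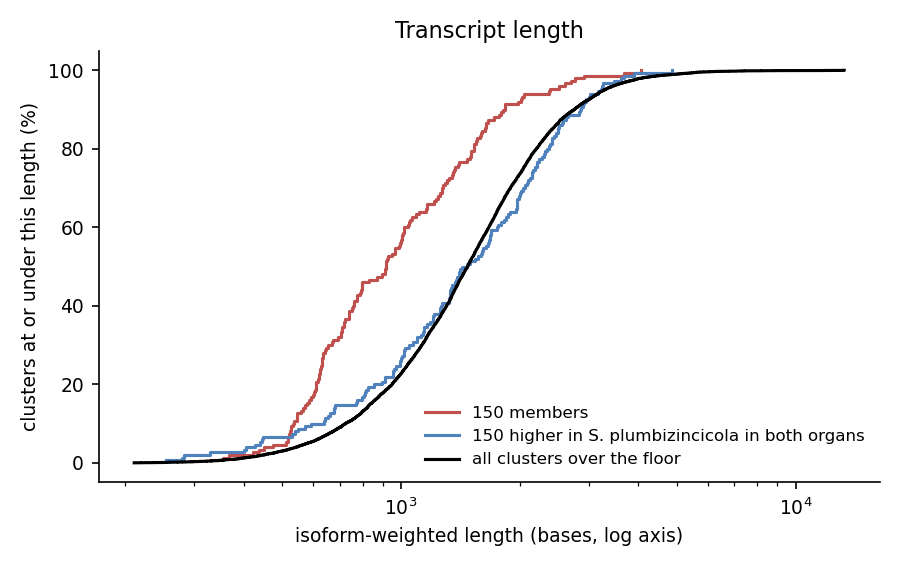
Cumulative share of clusters (y axis, %) at or under each isoform-weighted length (x axis, bases, log axis) for the 150 members, the 150 clusters higher in S. plumbizincicola in both organs, and all 10144 clusters over the floor. The curve of the members lies to the left, with a median of 919 bases, and the other curves have medians of 1448 and 1476.

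Isoform structure was less distinct. A single isoform was listed for 23 members (15.3%), 14.0% of the mirrored list and 6.78% of all clusters over the floor, and the median was 4 isoforms in each of the lists. In the 127 members with several isoforms the length, which moves when reads are assigned to other isoforms, was more than 1.1-fold longer in S. alfredii for 41 (32.3%) and more than 1.1-fold shorter for 20 (15.7%). For the mirrored list these shares were 11.6% and 48.1%, and for all clusters over the floor 23.4% and 30.7%. In both lists the longer mean was thus more often that of the species with the higher counts. The lists were chosen on counts, which do not allow for length, so nothing is read from this. The lengths of all 4 S. alfredii libraries lay outside the range of the 8 S. plumbizincicola libraries in 85 of the 127 (66.9%), close to the 63.9% of all clusters over the floor. The most abundant member, c34607_g1, was between 899 and 901 bases in S. alfredii and 928 bases in every S. plumbizincicola library.

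Clusters whose IDs share a component number can divide reads between them, so a member's partners in its component were read as well. All 150 members came from different components. Of these, 81 (54.0%) had at least 1 other cluster with 10 or more reads in the same component, as had 41.8% of all clusters over the floor. In 50 members (33.3%) such a partner was at least 2-fold higher in S. alfredii in both organs, against 14.9% of all clusters over the floor. In 23 members (15.3%) a partner was at least 2-fold higher in S. plumbizincicola in both organs, against 14.6% of all. Of the mirrored list, 20% had a partner of the first kind and 22.7% one of the second. These are species ratios too and are given as a description; the part that division of reads has in the members' ratios was not tested.

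The first member by score had the partner with the most opposite pattern. While c33094_g1 was 73.1-fold and 47.6-fold higher in S. alfredii roots and shoots, c33094_g2 had no reads in S. alfredii and a mean of 476 and 203 normalised counts in S. plumbizincicola roots and shoots. Summed over both clusters, the log2 ratio was 2.58 in roots and 2.29 in shoots, against 6.19 and 5.57 for c33094_g1 alone. The next was c44680_g2, with log2 ratios of 2.56 in roots and 3.15 in shoots. Its partner c44680_g3 had no reads in S. alfredii and means of 60.7 and 138 in S. plumbizincicola, and over the 4 measured clusters of the component the log2 ratio was 0.82 in roots and 1.03 in shoots. For the 84 members in components of several clusters, the whole component was summed. In 72 the sum was at least 2-fold and in 45 at least 4-fold higher in both organs, and in 1 it was lower in S. alfredii in both organs. Each sum contains the member's own counts, which the rule chose to be high, so these counts are a description. The median score of these 84 was 2.49 for the member and 2.16 for the sum.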

How the data were processed

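RNA-seq of S. alfredii and S. plumbizincicola roots and shoots was analysed from gene-level RSEM output. Each file lists, per the file headers, lengths in bases beside the expected count, TPM and FPKM of every cluster. FastQC, Bowtie and RSEM are the tools in the submitters' processing notes, without versions; the assembly, its source reads and read trimming are not given in the sources used here. Both species were counted on the same transcript set. The deposited expected counts, whole in 98.7% to 99.4% of values above 0, were rounded for the tests. The authors scaled TPM to an equal sum per library; the deposited FPKM were not used. The pooled 454 library was not analysed here.

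Members were selected on unrounded counts over median-of-ratios size factors. Members, lists and tests were chosen with earlier results of these data known. Groups came from the labels. The test was that of edgeR 4.0.16 under R 4.3.3 (filterByExpr, TMM, robust quasi-likelihood F-test, two-sided, Benjamini-Hochberg over all tested clusters, threshold 0.05). There was 1 fit of the 8 S. plumbizincicola libraries by group (19935 clusters, 4 residual degrees of freedom). The other fit, of all 12 libraries, had a mean per species and organ and a Cd term in each organ shared by the species (24074 clusters, 6 residual degrees of freedom). Standard errors are the log2 fold change over the square root of F. Alternatives were DESeq2 1.42.0, limma 3.58.1 on log2(TPM + 1), other scalings, filters, the letter A or B as a term, and leaving out each library. The tests were checked on simulated counts. Named clusters were the 2 with the highest score, the 2 highest and 2 lowest log2 values of each comparison among called members (among all members where fewer than 2 were called), and the 2 whose component partner was most opposite; c34021_g1 is outside this rule. For partners 1 was added to each mean. A depth of 1260160 to 4670429 reads makes 3 counts, the limit a count of 0 allows, equal to 0.642 to 2.38 CPM; intervals cover counting error only. Libraries A and B of a group were counted separately, since their counts were further apart than sampling allows (chi-square over its degrees of freedom 2.77 to 12.1).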

Additional observations from a re-analysis of the deposited data

Results flagged for a closer look

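In 9 of the 150 members the order of the organs was opposite in the species in every library: 8 were higher in both S. alfredii shoot libraries than in both root libraries while all 4 S. plumbizincicola root libraries were above all 4 shoot libraries, and 1 showed the reverse. This difference was not tested. The share of 6.00% compares with 7.36% of all 10144 clusters over the floor.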

How the results depend on the processing

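Of the 150 members, 93 were kept with deposited TPM, 23 with a floor of 50 counts in all 12 files and 1 with no floor, while 146 were kept with TMM factors and 137 to 146 when any 1 library was left out; 106 were in all 12 of those lists. With clusters summed over each component, an alternative chosen after seeing the data, 110 were kept, and 138 members were at least 2-fold higher in both organs. These sums contain the members' own counts, and 66 members were alone in their component. Without both Cd-treated S. alfredii libraries, also chosen afterwards, 137 were kept. On the TPM scale the median shoot ratio of all clusters over the floor was -0.59, and that of the members 2.24.

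The letters A and B are not said to mark shared plants. The A minus B differences of the S. plumbizincicola groups correlated at 0.076 to 0.433 across clusters. With a replicate block 0 members were called for Cd in roots, 0 in shoots and 0 for the difference of these responses. Between organs of S. plumbizincicola 93 were called, against 87 without the block. Among all clusters over the floor 3626 were root-higher and 2917 shoot-higher with the block, against 3340 and 2701 without it. The count of members thus rose along with that of all clusters over the floor. No member was called for Cd in S. plumbizincicola under any alternative except 1 in roots without a filter on low counts. Calls between organs ranged over 83 to 86 in S. plumbizincicola and 50 to 84 in S. alfredii when 1 library was left out, with the lowest without the untreated S. alfredii root library. Calls among all clusters over the floor fell as well. In S. plumbizincicola they were 2906 to 3147 root-higher and 2446 to 2671 shoot-higher. In S. alfredii they were 2520 and 2695 with all libraries, 1981 and 1643 without the untreated root library, and 1648 and 1808 without the treated one. With Cd in S. alfredii, 0 members in roots and 7 in shoots passed a 4-fold threshold, against 7 and 22 past 2-fold. Of the 10144 clusters over the floor, 5 were 4-fold or more higher and 4 lower in roots. In shoots 51 were higher and 30 lower by that threshold. A cluster with 1 very high S. alfredii library could enter the list through it, so the members' counts are a description. With a log2 ratio of at least 2 in place of 1, 12 members (8%) had an opposite partner, beside 7.8% of all clusters over the floor. At a log2 ratio of 1 these were 23 members (15.3%) beside 14.6%. The Cd value of c32406_g1 in S. plumbizincicola shoots, -0.76 and not called, ranged between -1.35 and 0.33 when 1 library was left out, with the highest without untreated library A. The causes were not tested. Counts of 10 to 20 in S. plumbizincicola limit the precision of most members.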
